A study of Mus musculus with 18 samples.

Results

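The GIMAP GTPases are a family of lymphocyte proteins that bind GTP, and the RNA of 8 of their genes (Gimap1, Gimap3, Gimap4, Gimap5, Gimap6, Gimap7, Gimap8 and Gimap9) was followed in mouse follicular B cells after activation through the B-cell receptor. The genes were chosen by symbol, with earlier results of these data known, so their direction is not independent evidence. The 8 genes had 11 probe sets that the platform annotation gives to a single gene. All 8 passed the filter on signal, as did 11104 genes of the 18193 with a named probe set. All 8 genes were lower after anti-IgD in vehicle-treated mice, against 30.6% of all genes tested, by log2 fold changes of -0.41 to -1.62. For each gene 1 probe set was taken, that of the highest mean signal. On it 4 of the 8 (Gimap1, Gimap7, Gimap8 and Gimap9) were higher with the BTK inhibitor PF-303 than with vehicle after anti-IgD. Of all genes 19.8% were. None of the 8 passed the test for PF-303 in mice given PBS, where 0.675% of all genes were called lower and 0.072% higher. The second probe set of Gimap6 went the other way and was lower with PF-303 after anti-IgD and after PBS alike. The values of a gene below are those of the probe set of highest mean unless another is named.

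B lymphocytes carrying CD23, the low-affinity IgE receptor of follicular B cells, came from spleens of C57BL/6J mice and were profiled on Affymetrix Mouse Genome 430 2.0 arrays. Mice given anti-IgD had received PF-303 (5 arrays) or vehicle (4 arrays), and so had mice given PBS (5 arrays with PF-303, 4 with vehicle). PF-303 blocks BTK, a kinase that relays the signal of the B-cell receptor, and was injected 2 h before the antibody against IgD, which crosslinks that receptor in vivo. Cells were taken 2 h after activation. The labels do not say that each sample came from its own mouse, and the p-values therefore reflect sample-to-sample spread, some of which may be technical. Dose, sex and age are not given in the sources used here.

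Several GIMAP proteins sit in membranes of mitochondria, lysosomes, the endoplasmic reticulum or the Golgi apparatus of lymphocytes, and some form GTP-dependent filaments or dimers. GIMAP proteins are known for keeping resting T and B cells alive. Mice or rats that lack Gimap5 lose lymphocytes, and mouse B cells need Gimap1 to survive. Their G domain is most like that of the septins, and in the mouse the genes lie side by side in 1 cluster.

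The arrays carried the RNA of B cells. Of the 10 follicular B-cell markers, 8 had a named probe set, and all of these were above the filter level. Their summed signal was 20932 to 30667 with anti-IgD and PF-303, 14989 to 17807 with anti-IgD and vehicle, 20923 to 35963 with PBS and PF-303 and 20913 to 39120 with PBS and vehicle. All arrays of anti-IgD with vehicle thus lay below every other array, and the part of this difference in the results on Gimap genes was not tested. Of 16 T-cell markers, 13 had a named probe set and 7 of these had mean signals below the filter level. The T-cell sum overlapped between all groups, with 176 to 299, 144 to 246, 160 to 253 and 170 to 294 in the same order of groups. The defining T-cell genes Cd3d, Cd3e and Cd3g together gave at most 66.4 on any array and had 2 of 3 means below the filter level. NK-cell markers (6 of 7 named, 2 below the filter level) summed to 89.7 to 246. Macrophage markers (6 of 6, none below it) summed to 1403 to 2977 with anti-IgD and PF-303 (median 1866), 836 to 2924 with anti-IgD and vehicle (median 2774), 1239 to 2257 with PBS and PF-303 (median 2029) and 1402 to 1956 with PBS and vehicle (median 1694). The group with the lowest Gimap signals thus had the highest macrophage median and also the array with the lowest macrophage sum, and the part of this in the results was not tested. Of 8 endothelial markers 7 were below it, and Pecam1, the other one, is also made by B cells. On 6 arrays the spike-in controls exceeded 2 times their median, and none of these was an array of anti-IgD with vehicle. Cd79a, a chain of the B-cell receptor, read 4788 on replicate 1 of anti-IgD with PF-303 and 5721 on replicate 4 of PBS with vehicle, against at most 2153 elsewhere. All signals are MAS5 values on a linear, arbitrary scale, so the level of 1 gene is not set against that of another.

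**Figure D1:**
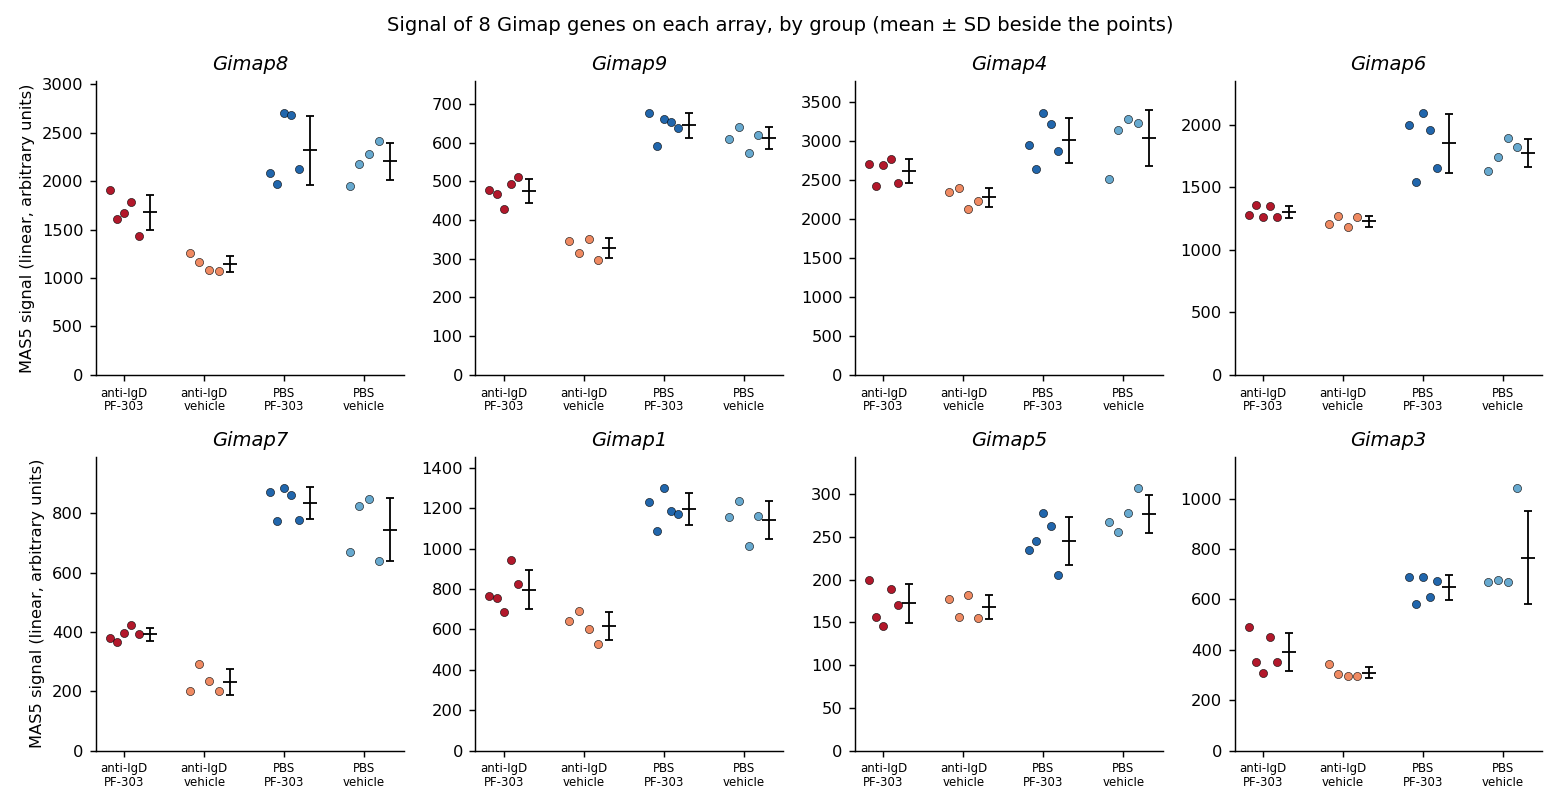
MAS5 signal (linear, arbitrary units, axis from 0) of each Gimap gene on each of the 18 arrays, in the order of the genes on the chromosome, with anti-IgD plus PF-303, anti-IgD plus vehicle, PBS plus PF-303 and PBS plus vehicle from left to right and the mean ± SD beside the points. In every panel the arrays of anti-IgD with vehicle lie below those of PBS with vehicle, and in the Gimap7, Gimap8 and Gimap9 panels the arrays of anti-IgD with PF-303 lie between the other groups.

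The first comparison asked how activation through the receptor changed the Gimap genes with BTK intact. All 8 genes fell with anti-IgD in vehicle-treated mice, against 30.6% of all genes tested that were called lower (limma, adjusted p under 0.05 over 11104 genes). Their median log2 fold change was -0.87, against -0.13 for all genes. For each of the 11 probe sets every array of anti-IgD with vehicle lay below every array of PBS with vehicle, as it did for 22.8% of all 20836 probe sets tested. In bulk RNA, fewer cells of a type and less RNA per cell cannot be told apart, and because every array was scaled to 1 level, lower means lower than the array as a whole.

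Gimap7, whose human protein speeds GTP hydrolysis by pairing with relatives, fell furthest. Its signal was 201, 293, 235 and 201 in the 4 arrays of anti-IgD with vehicle, against 668, 822, 846 and 638 with PBS and vehicle. The highest stimulated array was thus below the lowest resting one by a wide margin. The log2 fold change was -1.62 ± 0.11 (SE; adjusted p = 4.9e-11), a change of -67.4% on the scale of signal plus 16, and it ranked 39 from the lowest of all genes tested. A second, dimmer Gimap7 probe set (1444283_at) gave -1.28 ± 0.12, with 45.0, 42.5, 46.8 and 28.4 after anti-IgD against 122, 142, 125 and 96.0 after PBS. Adding 16 to the signal shrinks the change more at such low signals, so the sizes of the falls on the probe sets are not compared.

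Gimap3, a close relative of Gimap5 that in mice influences which mitochondrial genomes blood cells keep, read 342, 305, 295 and 295 with anti-IgD and vehicle, against 671, 679, 671 and 1041 with PBS and vehicle. The groups did not overlap, and 1 resting array stood apart above the other 3. The log2 fold change was -1.24 ± 0.13 (adjusted p = 1.1e-07), and -1.09 without that array, PBS with vehicle replicate 4. Gimap5, a lysosomal protein needed for the survival of T and B cells in mice, read 178, 156, 182 and 156 with anti-IgD and vehicle and 267, 255, 278 and 307 with PBS and vehicle. Its log2 fold change was -0.67 ± 0.10 (adjusted p = 1.0e-05). Gimap3 and Gimap5 are similar in sequence, and whether their probes tell them apart was not tested.

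Gimap8, the long member with several G domains in a row, had 1254, 1164, 1081 and 1076 after anti-IgD, against 1953, 2181, 2275 and 2410.5 after PBS, in vehicle-treated mice. The stimulated arrays lay close together and all below the resting ones, with a log2 fold change of -0.94 ± 0.11 (adjusted p = 4.1e-07). Gimap1, which mature B cells of mice need, had 642, 690.1, 604 and 527 after anti-IgD against 1155, 1235, 1011 and 1162 after PBS. Its log2 fold change was -0.88 ± 0.10 (adjusted p = 1.5e-07). Gimap9 had 345, 314, 351 and 297 after anti-IgD against 608, 641, 573 and 619.8 after PBS, with little spread in either group. Its log2 fold change of -0.87 ± 0.07 (adjusted p = 2.5e-09) was the most precise of the 8.

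The changes of Gimap6 and Gimap4 were the smallest. Gimap6, whose protein binds the ATG8 protein GABARAPL2 and takes part in autophagy, read 1204, 1272, 1181 and 1260.4 with anti-IgD and vehicle, against 1635, 1739, 1895 and 1825 with PBS and vehicle. The log2 fold change was -0.52 ± 0.09 (adjusted p = 5.2e-05). Gimap4, which in mice speeds the death of T cells after a death signal, read 2351, 2399.9, 2132 and 2235 against 2513, 3143, 3278 and 3229 in the same groups. One resting array (replicate 1) came near the stimulated ones. The log2 fold change was -0.41 ± 0.10 (adjusted p = 0.0019), and a second Gimap4 probe set (1424374_at) gave -0.55 ± 0.10. The probe set used for Gimap4 (1424375_s_at) has the suffix that Affymetrix gives to probe sets shared by several transcripts.

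**Figure D2:**
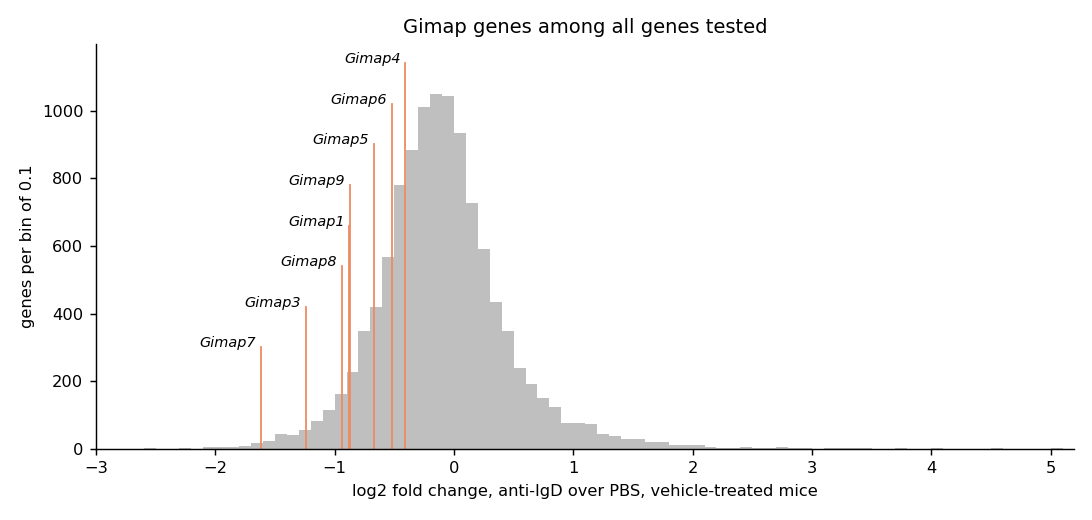
Distribution of the log2 fold change of anti-IgD over PBS in vehicle-treated mice for 11104 genes (grey, genes per bin on the vertical axis), with a line at the value of each Gimap gene; the heights of the lines only keep the names apart. All 8 lines lie left of the median of all genes at -0.13, from Gimap4 at -0.41 to Gimap7 at -1.62.

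On chromosome 6 the genes follow each other as Gimap8, Gimap9, Gimap4, Gimap6, Gimap7, Gimap1, Gimap5 and Gimap3, with 0 other tested genes between them in the RefSeq table of GRCm38.p6. The size of the fall did not follow that order: Gimap7, with -1.62, lies beside Gimap6, with -0.52. The nearest 3 tested genes on either side gave other values in vehicle-treated mice. Before Gimap8, Zfp775, which encodes a zinc finger protein, fell (-0.48 ± 0.18, adjusted p = 0.032) and Repin1, another zinc finger gene, rose (0.42 ± 0.14, adjusted p = 0.014). AI854703 (0.11 ± 0.26) and, beyond Gimap3, the membrane protein genes Tmem176b (-0.08 ± 0.14) and Tmem176a (-0.18 ± 0.16) and Malsu1 (0.13 ± 0.13), which acts in the assembly of mitochondrial ribosomes, did not pass the test.

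**Figure D3:**
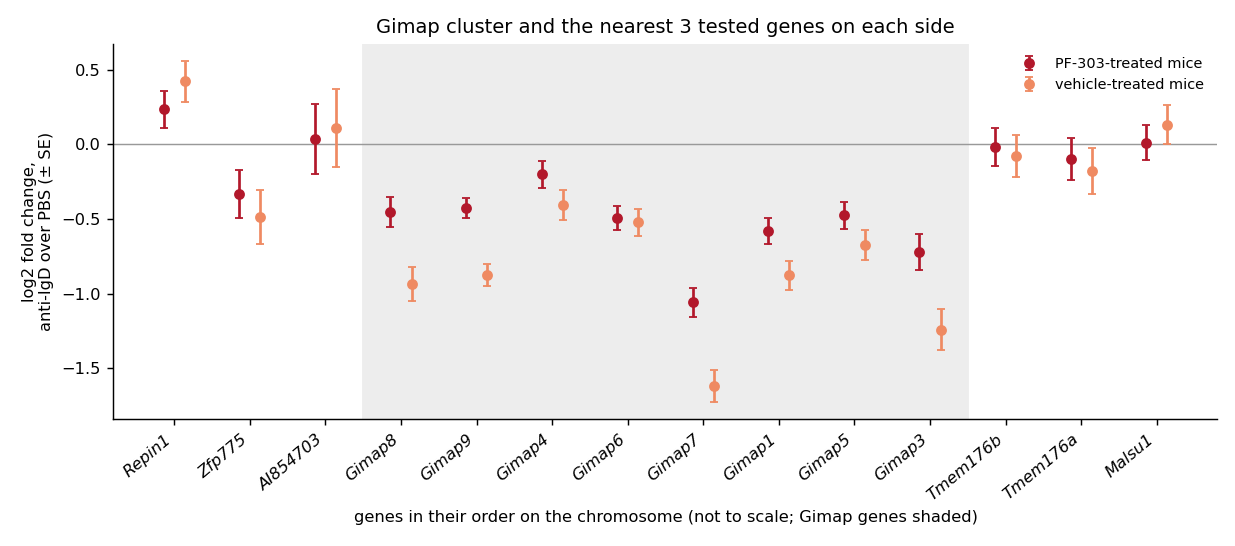
Log2 fold change of anti-IgD over PBS (± SE, vertical axis) in PF-303-treated and vehicle-treated mice for the Gimap genes (shaded) and 3 tested neighbours on each side, in their order on the chromosome and not to scale. All 16 Gimap values lie below 0, with Gimap7 the lowest in either kind of mouse, while the neighbours lie on both sides of 0 in vehicle-treated mice.

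Because the genes moved together, their promoters were searched for short motifs of factors known in lymphocytes (250 bases before to 50 after the start, RefSeq, GRCm38.p6). All 8 genes were in the table, with 9 promoters, since Gimap8 has 2. Those of 4 genes are shown: Gimap7 and Gimap3 for the deepest falls, Gimap4 for the shallowest, and Gimap6, whose probe sets disagreed. Each is printed 5′ to 3′ on the gene's strand, and capitals mark the motif matches. They lie at chr6:48718371-48718670 on the plus strand (Gimap7), chr6:48770802-48771101 on the minus strand (Gimap3), chr6:48684328-48684627 on the plus strand (Gimap4) and chr6:48708195-48708494 on the minus strand (Gimap6).
Gimap7: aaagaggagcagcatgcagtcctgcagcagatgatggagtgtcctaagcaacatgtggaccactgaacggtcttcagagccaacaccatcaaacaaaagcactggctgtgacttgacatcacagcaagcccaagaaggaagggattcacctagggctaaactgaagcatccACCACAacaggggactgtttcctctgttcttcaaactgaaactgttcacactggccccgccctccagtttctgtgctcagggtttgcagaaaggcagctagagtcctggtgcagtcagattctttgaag
Gimap3: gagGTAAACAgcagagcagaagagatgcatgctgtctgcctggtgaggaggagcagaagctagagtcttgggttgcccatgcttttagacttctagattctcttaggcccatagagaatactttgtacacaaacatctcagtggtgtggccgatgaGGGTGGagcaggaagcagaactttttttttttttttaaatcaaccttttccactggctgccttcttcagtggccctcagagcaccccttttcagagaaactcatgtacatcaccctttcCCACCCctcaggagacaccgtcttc
Gimap4: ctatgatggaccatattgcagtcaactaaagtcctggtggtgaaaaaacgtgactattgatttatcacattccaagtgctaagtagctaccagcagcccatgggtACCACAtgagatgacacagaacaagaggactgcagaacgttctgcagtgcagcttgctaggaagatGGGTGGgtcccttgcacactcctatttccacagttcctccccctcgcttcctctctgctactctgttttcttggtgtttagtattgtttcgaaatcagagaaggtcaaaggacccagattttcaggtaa
Gimap6: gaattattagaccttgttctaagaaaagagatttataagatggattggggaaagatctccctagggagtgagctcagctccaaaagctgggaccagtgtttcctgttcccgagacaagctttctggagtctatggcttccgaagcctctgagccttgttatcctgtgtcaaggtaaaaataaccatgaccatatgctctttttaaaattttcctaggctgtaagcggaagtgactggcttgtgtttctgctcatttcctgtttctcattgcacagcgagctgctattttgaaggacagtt
The letters searched, on both strands, were CCACCC (KLF), TGTGGT (RUNX), TGTTTAC (FOXO), CCGGAAG (ETS), CACGTG (the E-box of MYC) and TGANTCA (AP-1), and no matches overlapped. CCACCC, or GGGTGG on the other strand, was in the promoters of 5 genes (Gimap8, Gimap9, Gimap4, Gimap5 and Gimap3), and 31.5% of all 32851 promoters of that length in the table hold it. TGTGGT, read as ACCACA on the other strand, was in 3 (Gimap4, Gimap7 and Gimap1), against 16.8% of all promoters, and TGTTTAC was in 1 (Gimap3), against 3.65%. The ETS, E-box and AP-1 letters were in none of the windows of the 8 genes, against 8.86%, 7.15% and 7.81% of all promoters. In Gimap7, with the deepest fall, the sole match (ACCACA) lay 79 bases before the start, and Gimap6 had none of the letters searched. Only 1 string of letters was searched for each factor, and variants of it, such as gcggaag in the Gimap6 window, were not counted. A match of letters is a description and no binding site.

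The next comparison asked what the BTK inhibitor did to the level after anti-IgD. With PF-303, 4 of the 8 genes were higher than with vehicle on the probe set of highest mean (Gimap1, Gimap7, Gimap8 and Gimap9), against 19.8% of all genes called higher. None was lower on that probe set, but the other probe set of Gimap6 was (-0.64, adjusted p = 3.5e-06). With the mean of a gene's probe sets 5 genes were called higher and 1, Gimap6, lower, against 19.0% and 12.5% of all genes. The median over the 8 was 0.33, against 0.08 for all genes. The 4 arrays of anti-IgD with vehicle serve both in this comparison and in the one before.

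Gimap7 read 379.8, 367, 395, 424 and 391 in the 5 arrays of anti-IgD with PF-303, against 201 to 293 with anti-IgD and vehicle. The groups were clear of each other, and PF-303 differed from vehicle by 0.73 ± 0.10 in log2 (SE; adjusted p = 1.0e-05). Gimap8 read 1905, 1609.7, 1666, 1784 and 1430.4 with PF-303, against 1076 to 1254 with vehicle, again without overlap (0.54 ± 0.11, adjusted p = 4.3e-04). Gimap9 read 478, 467, 429, 492 and 510.2 with PF-303, against 297 to 351 with vehicle, and its groups did not overlap (0.52 ± 0.07, adjusted p = 7.4e-06). Gimap1, needed by mature B cells, read 765, 756, 687, 945 and 825 with PF-303, against 527 to 690.1 with vehicle. Its replicate 3 with PF-303 lay within the vehicle range, and the log2 fold change was 0.36 ± 0.09 (adjusted p = 0.0049).

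For the other 4 genes the difference did not pass the test. Gimap3 read 492, 352, 308, 451 and 352 with anti-IgD and PF-303, against 295 to 342 with vehicle. Its PF-303 arrays spread widely (0.31 ± 0.13, adjusted p = 0.076). The adjusted p was 0.027 without PBS with vehicle replicate 4 and 0.029 without anti-IgD with PF-303 replicate 3. Leaving out any other array gave no call. The Gimap3 value ran from 0.22 to 0.38 with each array left out in turn and from 0.21 to 0.40 with other processing. Over all these settings the adjusted p reached 0.22. Gimap4 lay at 2709, 2427, 2692, 2769 and 2466 with PF-303, against 2132 to 2399.9 with vehicle. These groups did not overlap, as was true of 4 of the 8 genes and of 17.5% of all genes in this direction, yet the log2 fold change of 0.19 ± 0.10 had an adjusted p of 0.13, whereas its other probe set was called higher (0.34 ± 0.09, adjusted p = 0.0090), as were 14.6% of all probe sets tested. Gimap5 lay at 200.1, 156, 146, 189 and 169.9 with PF-303, against 156 to 182 with vehicle, and the groups overlapped fully (0.03, 95% interval -0.17 to 0.23). Gimap6 lay at 1281, 1359.8, 1264, 1349.9 and 1260.4 with PF-303, against 1181 to 1272 with vehicle (0.08, 95% interval -0.10 to 0.26).

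In PF-303-treated mice anti-IgD still lowered 7 of the 8 genes, all but Gimap4, against 19.1% of all genes called lower. The median log2 fold change was -0.48, against -0.05 for all genes. Gimap7 again fell furthest, with 367 to 424 after anti-IgD against 872, 774, 884, 861 and 775 after PBS (-1.06 ± 0.10, adjusted p = 1.2e-08). It was followed by Gimap3, with 308 to 492 against 689, 582, 688, 609.7 and 673 (-0.72 ± 0.12, adjusted p = 6.0e-05), and Gimap1, with 687 to 945 against 1233, 1086, 1299, 1185 and 1169.5 (-0.58 ± 0.09, adjusted p = 1.6e-05). None of these 3 genes had arrays that overlapped between the groups. For 7 of the 8 genes every array of anti-IgD lay below every array of PBS in PF-303-treated mice, against 13.6% of all genes.

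Gimap6 (-0.49 ± 0.08), Gimap5 (-0.48 ± 0.09), Gimap8 (-0.45 ± 0.10) and Gimap9 (-0.43 ± 0.07) fell by similar amounts, with adjusted p-values of 4.8e-05, 2.8e-04, 0.0011 and 2.4e-05. Their PBS arrays with PF-303 read 1546 to 2099 for Gimap6, 206 to 278 for Gimap5, 1973 to 2707 for Gimap8 and 592 to 678 for Gimap9, and every one was above the arrays of anti-IgD with PF-303. Gimap4 read 2427 to 2769 after anti-IgD and 2954, 2644, 3368, 3217 and 2869.9 after PBS, so that its groups overlapped. Its log2 fold change of -0.20 ± 0.09 had an adjusted p of 0.094. Gimap4 passed the test with quantile normalization (-0.29, adjusted p = 3.8e-04), with spike-in signal as a covariate (-0.21, adjusted p = 0.0057) and without PBS with PF-303 replicate 2 (adjusted p = 0.049).

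The difference between the responses in PF-303-treated and vehicle-treated mice (the interaction term of the same fit) was above 0 for all 8 genes on the probe set of highest mean, with a median of 0.37 against 0.07 for all genes. A positive value means a smaller fall with PF-303. It passed the test for 3 genes, against 6.66% of all genes called higher. These were Gimap7 (0.56 ± 0.14, adjusted p = 0.016), Gimap9 (0.45 ± 0.10, adjusted p = 0.0066) and Gimap8 (0.48 ± 0.15, adjusted p = 0.044). The call for Gimap8 was close to the threshold. It was lost, with adjusted p-values of 0.054 to 0.091 and values of 0.43 to 0.50, when any 1 of 13 arrays was left out, and kept only without replicate 1 of either vehicle group, replicate 5 of anti-IgD with PF-303, or replicate 3 or 4 of PBS with PF-303. With the row letter of the labels' position code as a block, no Gimap gene passed the test of the interaction, while the differences were about as large, at 0.57 for Gimap7 (adjusted p = 0.13), 0.50 for Gimap8 (adjusted p = 0.20) and 0.53 for Gimap9 (adjusted p = 0.053). Under that block 1.70% of all genes were called higher.

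The other 5 genes did not pass the test of the interaction. Gimap3 had 0.52 ± 0.18 (adjusted p = 0.073), with a wider error than the genes that passed. With 1 array left out its difference ran from 0.36 to 0.59, and with the alternatives from 0.28 to 0.66. It passed only without anti-IgD with PF-303 replicate 3 (0.59, adjusted p = 0.039). Gimap1 had 0.29 (95% interval 0.02 to 0.57, adjusted p = 0.17), Gimap4 0.21 (-0.07 to 0.49), Gimap5 0.20 (-0.09 to 0.48) and Gimap6 0.03 (-0.22 to 0.28). The intervals of these last 3 genes span 0, and those of Gimap4 and Gimap5 also hold the 0.45 found for Gimap9, whereas that of Gimap6 ends below it.

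**Figure D4:**
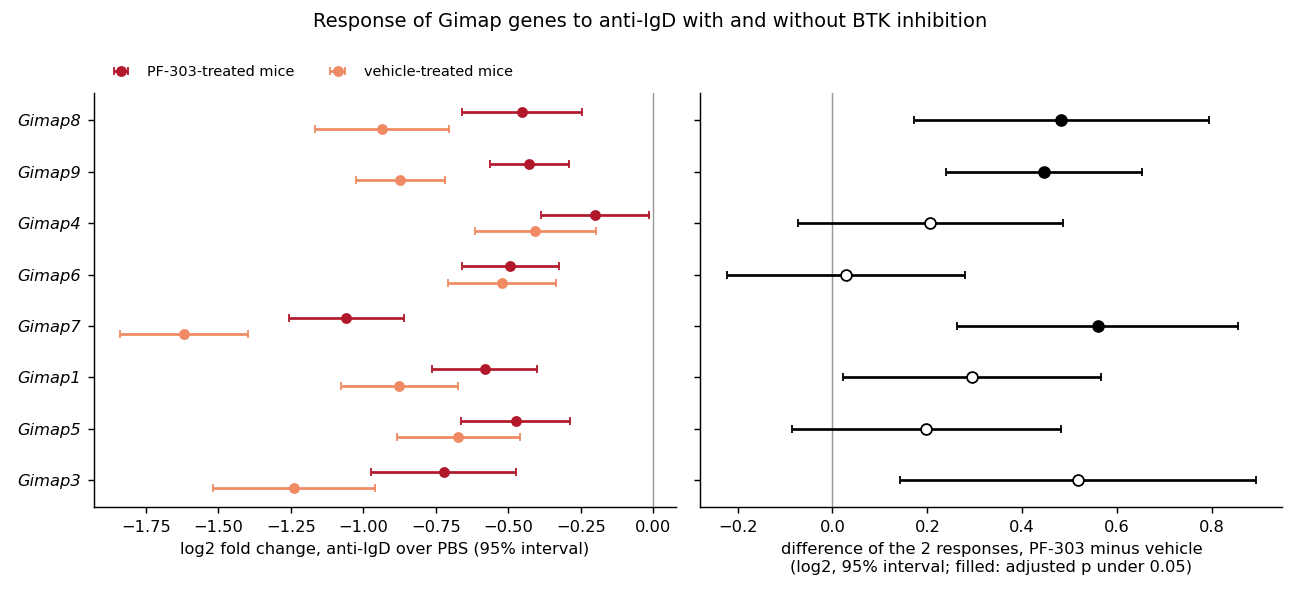
Left, log2 fold change of anti-IgD over PBS in PF-303-treated mice (upper mark of each gene) and vehicle-treated mice (lower mark), with 95% intervals; right, the difference between them with its 95% interval, filled where the adjusted p is under 0.05. On these probe sets, those of highest mean, the PF-303 marks lie right of the vehicle marks for all 8 genes, and the filled points are Gimap8, Gimap9 and Gimap7.

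Without stimulation no Gimap gene passed the test for PF-303 on its probe set of highest mean, whereas the second Gimap6 probe set was lower (-0.57, adjusted p = 3.4e-04). The 8 log2 fold changes of PF-303 over vehicle in PBS-treated mice ran from -0.21 (Gimap3) to 0.17 (Gimap7), with a median of 0.06 against 0.01 for all genes, and the lowest adjusted p among them was 0.58 (Gimap5). In the limma fit of these probe sets the count was also 0 at an unadjusted p under 0.05. Of all genes, 0.675% were called lower and 0.072% higher in this comparison. The 95% intervals were -0.04 to 0.38 for Gimap7 and -0.48 to 0.05 for Gimap3. The arrays of PBS with PF-303 and PBS with vehicle overlapped for each of the 8 genes on the probe set used in the fit.

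Ordered by mean signal on the probe set of highest mean, anti-IgD with vehicle was lowest for all 8 genes and anti-IgD with PF-303 next. On the second Gimap6 probe set anti-IgD with PF-303 was lowest (453), followed by anti-IgD with vehicle (717), PBS with PF-303 (744) and PBS with vehicle (1110.3). The means of Gimap7 were 392 ± 21.4 (SD, n = 5) with anti-IgD and PF-303, 232 ± 43.4 (n = 4) with anti-IgD and vehicle, 833 ± 54.0 (n = 5) with PBS and PF-303 and 744 ± 106 (n = 4) with PBS and vehicle. The PBS groups came out in either order, with PBS plus vehicle above PBS plus PF-303 for Gimap3, Gimap4 and Gimap5 and below it for the other 5. On these probe sets the PBS groups did not differ past the test for any of the 8, nor the anti-IgD groups for Gimap3, Gimap4, Gimap5 and Gimap6.

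The probe sets of Gimap6 disagreed on the inhibitor, which was seen after the values were known. The dimmer one (1456762_at) read 414, 479, 414, 475 and 483 with anti-IgD and PF-303, against 793, 704, 738 and 634 with anti-IgD and vehicle. It read 704, 775, 695, 783 and 765 with PBS and PF-303, against 1186, 1130.2, 1062 and 1063 with PBS and vehicle. PF-303 thus went with a lower signal in stimulated and resting cells alike, with no overlap between the groups in either. Of all probe sets, 10.6% after anti-IgD and 2.33% after PBS had every PF-303 array below every vehicle array.

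With each probe set tested on its own over 20836 probe sets, its log2 fold change of PF-303 over vehicle was -0.64 ± 0.08 (adjusted p = 3.5e-06) after anti-IgD and -0.57 ± 0.08 (adjusted p = 3.4e-04) after PBS. Of all probe sets 11.7% and 0.533% were called lower in these comparisons. The brighter probe set (1427891_at) gave 0.08 (95% interval -0.10 to 0.26) and 0.05 (95% interval -0.13 to 0.24). Within each array, the log2 difference between the dimmer and the brighter probe set averaged -1.49 ± 0.10 (SD, n = 5) with anti-IgD and PF-303 against -0.77 ± 0.17 (n = 4) with anti-IgD and vehicle. With PBS it averaged -1.29 ± 0.25 (n = 5) with PF-303 against -0.67 ± 0.17 (n = 4) with vehicle. Exact two-sided permutation tests gave p = 0.0159 for each, the smallest that 5 against 4 arrays allow, and 0.0954 after adjustment over the 12 comparisons of probe set pairs. Anti-IgD lowered both probe sets in vehicle-treated mice, by -0.62 ± 0.08 for the dimmer one and -0.52 ± 0.09 for the brighter one. Where in the transcript each probe set lies was not analysed here.

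**Figure D5:**
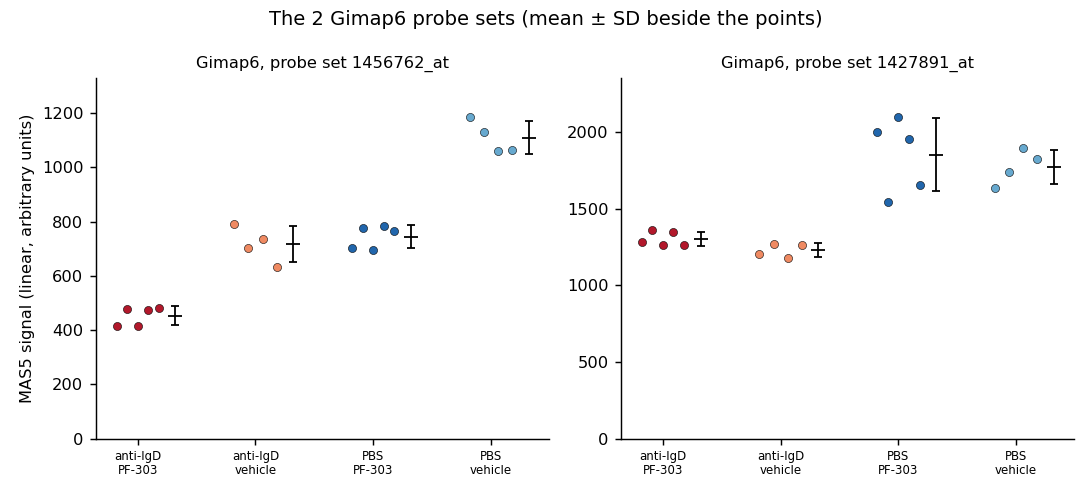
MAS5 signal (linear, arbitrary units, axes from 0 with different scales) of both Gimap6 probe sets on each array, with the mean ± SD beside the points and anti-IgD plus PF-303, anti-IgD plus vehicle, PBS plus PF-303 and PBS plus vehicle from left to right. On 1456762_at the PF-303 arrays lie below the vehicle arrays of the same stimulus, at 414 to 483 against 634 to 793 after anti-IgD, while on 1427891_at they overlap.

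The second probe set of Gimap7 gave the same direction as the first for the inhibitor after anti-IgD, with 64.2, 75.6, 61.6, 77.1 and 72.8 against 28.4 to 46.8 and a log2 fold change of 0.61 ± 0.11 (adjusted p = 3.2e-04). Its interaction of 0.41 ± 0.16 did not pass the test (adjusted p = 0.13). Within-array differences between the probe sets of Gimap7 shifted by 0.34 between anti-IgD and PBS in vehicle-treated mice (exact permutation p = 0.0571, adjusted 0.152). The within-array differences of Gimap4 shifted by 0.14 between PF-303 and vehicle after anti-IgD (exact permutation p = 0.0317, adjusted 0.127).

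The signals of the Gimap genes varied together across the 18 arrays. Pairs of Gimap genes had Pearson correlations of 0.77 (Gimap4 with Gimap5) to 0.96 (Gimap1 with Gimap9). These describe arrays that fall into 4 groups and share scaling, and so reflect the group differences above. The genes whose pattern was most like the mean of the 8 were Ripor2 (r = 0.988), Syk (r = 0.987), the kinase next to the B-cell receptor, Nuak2 (r = 0.987), a kinase of the AMPK family, Samhd1 (r = 0.985), which breaks down deoxynucleotides, and Add3 (r = 0.985), a protein of the membrane skeleton. In vehicle-treated mice their log2 fold changes with anti-IgD were -1.05, -1.56, -1.42, -0.89 and -1.65. The closest match of single genes differed: Rdh12 for Gimap7, Ccng2 for Gimap9, Dpp4 for Gimap8, Kbtbd11 for Gimap1, Il17ra for Gimap3, Khnyn for Gimap5, Fam107b for Gimap6 and Fcho1 for Gimap4.

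Proteins that GIMAPs have been reported to bind or regulate were more mixed. Of 14 tested genes, 6 fell and 1 rose with anti-IgD in vehicle-treated mice, with a median of -0.13, equal to that of all genes, of which 30.6% were called lower and 17.4% higher. Bcl2, which protects cells from death at the mitochondrion, fell most (-1.05 ± 0.15), followed by its antagonist Bad (-0.74 ± 0.18), and the protective Bcl2l1 rose (0.58 ± 0.15). Gabarapl2, the ATG8 protein that Gimap6 binds, fell (-0.49 ± 0.07), and so did Gsk3b (-0.50 ± 0.11), a kinase that Gimap5 restrains in T cells. With PF-303 after anti-IgD, 4 were higher and 2 lower than with vehicle, against 19.8% and 10.4% of all genes. Bak1, which opens the mitochondrial membrane (0.57 ± 0.14), and Bcl2 (0.48 ± 0.14) were higher, and Bcl2l1 (-0.95 ± 0.14) and the death-promoting Bcl2l11 (-0.78 ± 0.13) were lower. The interaction passed the test above 0 for Bak1 (0.64 ± 0.20) and below 0 for Bcl2l1 (-0.81 ± 0.20) and Bcl2l11 (-0.65 ± 0.19).

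Other GTPase families of immune cells were examined beside the Gimap genes. Of 12 interferon-inducible GTPases tested, 9 fell and 0 rose with anti-IgD in vehicle-treated mice, against 30.6% and 17.4% of all genes. Their median was -0.68, against -0.13 for all genes. The falls were led by the guanylate-binding proteins Gbp3 (-1.64 ± 0.09) and Gbp2 (-1.26 ± 0.15). With PF-303 after anti-IgD 7 were higher than with vehicle, against 19.8% of all genes. In PF-303-treated mice 10 of the 12 fell with anti-IgD, against 19.1% of all genes. The interaction passed the test for 0 of them, against 6.66% of all genes called higher. Of 8 septins, 2 fell and 3 rose in vehicle-treated mice, with a median of -0.00027. The share that fell was thus near the 30.6% of all genes. Septin9 (-1.24 ± 0.15) and Septin6 (-0.34 ± 0.08) fell, while Septin11 (1.21 ± 0.11) and Septin7 (0.80 ± 0.09) rose. With PF-303 after anti-IgD 3 were higher, where 19.8% of all genes were. The interaction passed the test for Septin9 only (0.85 ± 0.20, adjusted p = 0.0085), where 6.66% of all genes were called higher.

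Genes of resting lymphocytes mostly fell. With anti-IgD in vehicle-treated mice 11 of 15 fell and 1 rose, with a median of -1.01, against 30.6% and 17.4% of all genes and their median of -0.13. Tsc22d3, a glucocorticoid-induced repressor (-1.74 ± 0.13), and Cdkn1b, an inhibitor of the cell cycle (-1.60 ± 0.09), fell furthest, and Ccr7, a homing receptor, rose (0.60 ± 0.12). With PF-303 after anti-IgD 12 were higher than with vehicle, against 19.8% of all genes, led by the egress receptor S1pr1 (1.31 ± 0.11) and Ddit4 (1.27 ± 0.17), an inhibitor of mTOR signalling. The interaction passed the test for 7 of them, all above 0, against 6.66% of all genes called higher. These lists were drawn up with earlier results of these data known, so their direction is not independent evidence.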

How the data were processed

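RNA of CD23+ splenic B lymphocytes (18 arrays in 4 groups by the labels) was converted to biotinylated cRNA from 150 ng of total RNA with a 3' IVT kit, per the labels' protocols. The authors deposited a linear intensity for each probe set, computed with MAS5 per the submitters' processing notes; its version and settings are not given in the sources used here. Every array had a 2%-trimmed mean of 99.96 to 99.97, so the signals had been scaled to 1 level, and a change in total RNA per cell cannot show. No detection calls were used. Of 45101 probe sets, 64 were controls, 34945 had 1 platform symbol, 932 several and 9160 none. Symbols were updated through the RefSeq table of GRCm38.p6, in which 204 had no match.

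Control probe sets were left out, and a signal above 15.2 (the overall median) was required on 4 or more arrays. A gene was represented by its probe set of highest mean. Values were taken as log2(signal + 16), which shrinks the fold changes of dim genes. Linear models with 1 mean per group were fitted across 11104 genes in R 4.3.3 with limma 3.58.1 (lmFit, eBayes with a trend; statmod 1.5.0), and 5 contrasts were tested two-sided with Benjamini-Hochberg adjustment over all genes, at an adjusted p under 0.05. The fit was tested on simulated data. No 2 arrays were alike: the log2 difference had an SD of 0.239 or more (median 0.311 for arrays of 1 group). Precision is limited by the number of arrays. Replicate numbers were taken only to number the samples within a group. Correlations of deviations between samples of 1 number ran from -0.16 to 0.22, and those of number 3 from 0.14 to 0.20. All arrays of number 3 had high spike-in signal, at 2.26 (PBS with vehicle), 2.46 (anti-IgD with PF-303) and 3.34 (PBS with PF-303) times the median. The part of this in their correlations was not tested. Samples of unlike number were not compared, so whether the numbers pair the samples was not tested.

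Every Gimap gene is named. From each of the lists of reported partners, interferon-inducible GTPases, septins and resting lymphocyte genes, the 2 largest changes in each direction are named; Gabarapl2 and Gsk3b were added after their values were seen. The members, lists and motifs were chosen with earlier results of these data known. Alternatives were another offset, filter, scaling, probe set rule or variance model, a block or covariate, and arrays left out. Protein sequences were not analysed here.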

Additional observations from a re-analysis of the deposited data

Results flagged for a closer look

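On 1 array of PBS with vehicle (replicate 4) Gimap3 read 1041, against 671 to 679 on the other 3 arrays of its group. The same array had the highest Cd79a signal (5721) and the highest spike-in ratio (3.88 times the median over arrays). The second Gimap4 probe set (1424374_at) read 1471 on replicate 3 of PBS with PF-303, against 1165 to 1237 on the other 4. The spike-in ratio of that array was 3.34. Chance sets about 1 in 20 independent groups apart in this way, and here it was 2 of 44 groups of arrays examined. These groups come from 11 probe sets on the same 18 arrays and are not independent, so that rate is only a rough guide. Both flagged arrays were among the 6 of high spike-in signal, and the part of this was not tested.

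The response to anti-IgD differed between PF-303-treated and vehicle-treated mice for Gimap7 (0.56 on the log2 scale), Gimap8 (0.48) and Gimap9 (0.45) by the interaction term of the limma fit. The fall was smaller with PF-303 for each of them. These calls depend on the processing: that of Gimap8 is lost when any 1 of 13 arrays is left out and under 7 alternatives, and all 3 are lost with the position row as a block.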

How the results depend on the processing

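With 15 alternatives, and with each of the 18 arrays left out in turn, all 8 Gimap genes kept the direction of their fall with anti-IgD in both kinds of mice, and the test in vehicle-treated mice was lost once, for Gimap4 with the position row as a block (-0.36, adjusted p = 0.057). Leaving out 1 array gave 8 genes called in vehicle-treated mice, 4 to 5 for PF-303 after anti-IgD, 0 for PF-303 after PBS, 7 to 8 for anti-IgD with PF-303 and 2 to 3 for the interaction. Of all genes, 27.9% to 31.0% were then called lower in vehicle-treated mice and 16.7% to 21.2% higher for PF-303 after anti-IgD. For anti-IgD with PF-303, 16.8% to 20.0% were called lower, and for the interaction 4.85% to 7.08% higher. With the position row as a block the interaction was called for 0 genes, with values of 0.57 for Gimap7, 0.50 for Gimap8 and 0.53 for Gimap9, and the share of all genes called higher was 1.70% against 6.66%. The Gimap8 interaction also lost its call without a filter (adjusted p = 0.074), with arrays shifted to 1 median (0.059), with each probe set on its own (0.057), with no variance trend (0.061), with the replicate block (0.072) and without the arrays of high Cd79a signal (0.12), at values of 0.39 to 0.48. With the mean of a gene's probe sets 1 gene was called for PF-303 after PBS (Gimap6, -0.26, adjusted p = 0.044), where 0.774% of all genes were called lower. The replicate block gave 8, 5, 0, 7 and 2 called genes in the same order of contrasts. In those with called genes, 29.7% of all genes were called lower, 19.9% higher, 19.9% lower and 5.90% higher. Whether the numbers pair the samples was not tested. Without the 2 arrays of high Cd79a signal, an alternative chosen after seeing the data, the counts were 8, 4, 0, 7 and 2. The shares of all genes were 29.8% lower, 20.3% higher, 19.4% lower and 5.71% higher in the contrasts with called genes. With Cd3 signal as a covariate the counts were 8, 5, 0, 7 and 3, against 31.0% lower, 19.7% higher, 19.3% lower and 7.27% higher. For PF-303 after anti-IgD, Gimap3 gained a call with the replicate block and with the Cd3 covariate. Another call came with the 6 arrays of high spike-in signal left out (0.30, adjusted p = 0.021). Over the alternatives the Gimap3 value ran from 0.21 to 0.40. Its adjusted p reached 0.22 over the alternatives and arrays left out. Gimap4 gained a call in this comparison with the mean of its probe sets (0.27, adjusted p = 0.025). For anti-IgD with PF-303, Gimap4 gained a call with quantile normalization and with the spike-in covariate.

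Values that changed sign were near 0 except those of Gimap6, whose probe sets disagree. With the mean of its probe sets Gimap6 had -0.28 for PF-303 after anti-IgD (adjusted p = 0.0012), -0.26 after PBS and -0.024 for the interaction. For PF-303 after anti-IgD, Gimap6 had -0.044 with the position row, and Gimap5 had -0.040 with the spike-in covariate, -0.022 without the arrays of high Cd79a signal and -0.022 to 0.082 with 1 array left out. For PF-303 after PBS, leaving out the arrays of high spike-in signal gave -0.040 for Gimap1, -0.0016 for Gimap8 and 0.0046 for Gimap4. Gimap4 also had 0.0078 with arrays shifted to 1 median, 0.0051 with the replicate block, 0.020 without the arrays of high Cd79a signal and -0.10 to 0.034 with 1 array left out. The Gimap6 interaction was -0.0085 with the replicate block, -0.13 with the position row, -0.048 with the spike-in covariate and -0.034 to 0.075 with 1 array left out. The causes were not tested. MAS5 signals near background are noisy, which bears most on the dimmer Gimap7 probe set.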

Other observations

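Pecam1, an adhesion receptor of B cells, platelets and endothelium, averaged 129 with anti-IgD and PF-303, 76.5 with anti-IgD and vehicle, 232 with PBS and PF-303 and 232 with PBS and vehicle. The 7 other endothelial markers had means below the filter level. Cd14, a receptor for bacterial lipids on macrophages, averaged 102 with anti-IgD and PF-303, 278 with anti-IgD and vehicle, 25.6 with PBS and PF-303 and 79.1 with PBS and vehicle. The macrophage marker Csf1r went the other way between the vehicle groups, with 267 after anti-IgD and 318 after PBS.

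On the list of resting lymphocyte genes, Pik3ip1, an inhibitor of PI3 kinase, rose with anti-IgD in PF-303-treated mice (1.13 ± 0.12, adjusted p = 1.8e-07) and had a value of 0.10 ± 0.14 in vehicle-treated mice (adjusted p = 0.59). The difference between the responses was 1.03 ± 0.18 (limma interaction, adjusted p = 0.0012). S1pr1 also rose in PF-303-treated mice (0.31 ± 0.10, adjusted p = 0.022) and fell in vehicle-treated mice (-1.01 ± 0.12), with a difference of 1.32 ± 0.15 (adjusted p = 1.9e-05). These genes were chosen after their values were seen.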
